A study of Mus musculus with 22 samples.

Results

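Tumours grown in mice from cells first cultured in either of a pair of media were compared, within the genotypes that had tumours from both. Of the 22 libraries of the series, 7 were used: 4 allografts of cells kept under conditional reprogramming (CRC) and 3 of cells kept in the mammary-optimised EpiC culture, chosen by genotype and medium label alone. All 7 were poly(A) RNA-seq libraries of allografts made in the mammary gland, with C57Bl/6 donor cells in NU (NCr)-Foxn1nu hosts and a nulliparous female sex label. Among CRC allografts, 6C carried the Tet-op-CYP19A1 aromatase transgene with MMTV-rtTA (here CYP19A1), and 10B, 10C and 11C carried 1 floxed Brca1 allele (Brca1mp). The EpiC allograft 7B had the CYP19A1 genotype, and the EpiC allografts 4C and 5A had the Brca1mp genotype. Every donor genotype also held 1 mutant Trp53 allele and MMTV-Cre, so no group here is wild type. The 3 Brca1mm allografts (both Brca1 alleles floxed, CRC only) stayed outside the test because that genotype had no EpiC allograft. The 4 cultures of the matched genotypes, 1 per genotype and medium, were used for comparison.

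Conditional reprogramming usually grows epithelial cells on irradiated fibroblast feeders with a small-molecule kinase inhibitor, which keeps them dividing in a basal, progenitor-like state. EpiC stands here for a medium made for mammary epithelium. An allograft library mixes tumour cell RNA with RNA of host vessels, fibroblasts, muscle and immune cells. Nude mice lack a thymus, so they have few T cells but keep natural killer cells, B cells and macrophages. Granzymes, the proteases of killer cell granules, are known there chiefly from natural killer cells, and fibrillar collagens from fibroblasts or from tumour cells that have become mesenchymal. The MMTV promoter drives Cre and rtTA mainly in mammary epithelium. In bulk tissue, fewer cells of a type and less RNA per cell cannot be told apart. Nothing in the labels tells whether the allografts of a medium derive from different animals or from different cultures, so the p-values measure only the spread between these libraries, which may be technical.

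The genes that stand at the lower end in CRC allografts are a cluster of granzymes, and their promoters are shown first because they share a stretch of sequence. The 90-base stretches below lie upstream of the RefSeq starts of the 5 called granzyme genes, on the minus strand of chromosome 14 in GRCm38.p6. They are written 5′ to 3′, and the capitals mark 20 bases that all 5 have in common.
Gzmc, chr14:56234658-56234747: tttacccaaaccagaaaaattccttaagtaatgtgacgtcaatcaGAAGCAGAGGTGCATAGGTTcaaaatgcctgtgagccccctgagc
Gzmd, chr14:56132609-56132698: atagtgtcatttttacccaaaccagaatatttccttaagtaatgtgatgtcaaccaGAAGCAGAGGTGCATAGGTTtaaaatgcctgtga
Gzme, chr14:56120626-56120715: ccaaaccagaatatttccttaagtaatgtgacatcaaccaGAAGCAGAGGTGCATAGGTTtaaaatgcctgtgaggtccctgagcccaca
Gzmf, chr14:56211418-56211507: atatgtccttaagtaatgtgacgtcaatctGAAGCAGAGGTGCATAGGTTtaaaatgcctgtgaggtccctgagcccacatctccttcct
Gzmg, chr14:56159580-56159669: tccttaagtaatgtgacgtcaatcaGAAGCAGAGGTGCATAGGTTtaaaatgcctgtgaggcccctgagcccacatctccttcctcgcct

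The run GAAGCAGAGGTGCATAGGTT, searched on both strands, occurred in 5 of 32851 RefSeq promoters (0.0152%), and these were the promoters of the same 5 genes. The run was picked as the longest that the 5 stretches share, so its presence in them was given. The promoters of Gzmb and Gzmn did not hold it exactly. Near matches were not searched, and these promoters were not aligned. Aligned pairs of the 5 stretches were 90.7% to 97.6% identical. The transcripts are also alike, with 94.8% identity between Gzmd and Gzme and 87.6% to 94.8% among Gzmd, Gzme, Gzmf and Gzmg, against 76.1% to 77.1% between Gzmc and these 4. Reads may therefore have been split between Gzmd, Gzme, Gzmf and Gzmg, and their separate levels are uncertain. The shared run is a description of the sequence, and no binding was measured.

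Levels are in FPKM, that is, fragment numbers divided by the length of the gene and by the size of the library. Their sums over genes were 546510 to 615719 in CRC allografts and 466441, 482639 and 825216 in EpiC allografts, so that EpiC allograft 5A stood apart. Its 10 highest genes held 13.9% of its sum. Correlations across genes between the 7 libraries ranged from 0.928 to 0.987, the highest being between 10B and 10C, which share a number whose meaning the labels do not give. Neither of the altered mouse genes passed the test between media. Brca1, the DNA repair gene, averaged 3.08 ± 0.471 FPKM in CRC allografts and 3.67 ± 1.82 FPKM in EpiC allografts (SD, n = 4 and 3; limma adjusted p = 0.941). Trp53, the tumour suppressor, averaged 19.3 ± 8.94 FPKM in CRC allografts, where 6C had 32.6, and 15.6 ± 1.03 FPKM in EpiC allografts (adjusted p = 0.878). A gene-level value does not show whether the floxed part of Brca1 was lost. Mouse Cyp19a1 was at or below 0.0106 FPKM in all 7, and the CYP19A1 transgene was not analysed here.

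The mammary epithelial label was checked against its markers. Keratin genes of luminal cells were present, with Krt8 at 17.6 to 366 FPKM in CRC allografts and 57.0 to 719 FPKM in EpiC allografts. Defining junction and adhesion genes were low, with Epcam at 0.419 to 1.55 FPKM in CRC allografts and 1.49 to 4.0 FPKM in EpiC allografts. The basal cell factor Trp63 reached at most 0.965 FPKM in the 7. Vim, the intermediate filament of mesenchymal cells, was at 1871 to 2195 FPKM in CRC allografts and 1093 to 6489 FPKM in EpiC allografts. In both groups the mesenchymal gene Vim was thus far above the epithelial genes Epcam and Cdh1, although the donor cells are labelled as mammary.

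Of 11965 genes that averaged 1 FPKM or more, 30 differed between CRC and EpiC allografts with genotype in the model (0.251%; limma on log2(FPKM + 1), Benjamini-Hochberg adjusted p under 0.05). Of these, 21 were higher in CRC allografts (0.176%) and 9 were lower (0.0752%). At an unadjusted p under 0.05, 479 genes were higher (4%) and 416 lower (3.48%), and the median difference over all genes tested was 0.02 log2 units. In 29 of the 30 the CRC and EpiC values did not overlap, against 3.84% of all genes with CRC higher throughout and 4.15% with EpiC higher throughout. All 30 went the same way in the Brca1mp allografts and in the CYP19A1 pair. The 30 were chosen on these same 7 libraries, so the counts of overlap and of direction are a description. The number of calls depended on single libraries, with 6 called without 10B, 10 without 10C, 14 without 5A, 16 without 6C, without 11C or without 7B, and 27 without 4C. Of the 30, 5 stayed called whichever library was left out. The others lost their call without at least 1 library, with an adjusted p of up to 0.197 (Shc2 without 10C). Jph2, Dlg4, Fkbp11, Zfp503, Thbs2, Ak5, Shc2, Lgals7, Tmsb15l and Speg were called in 0 of the 7 fits that left out 1 library. The plot of the called genes in every library shows how far the groups stood apart.

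**Figure D1:**
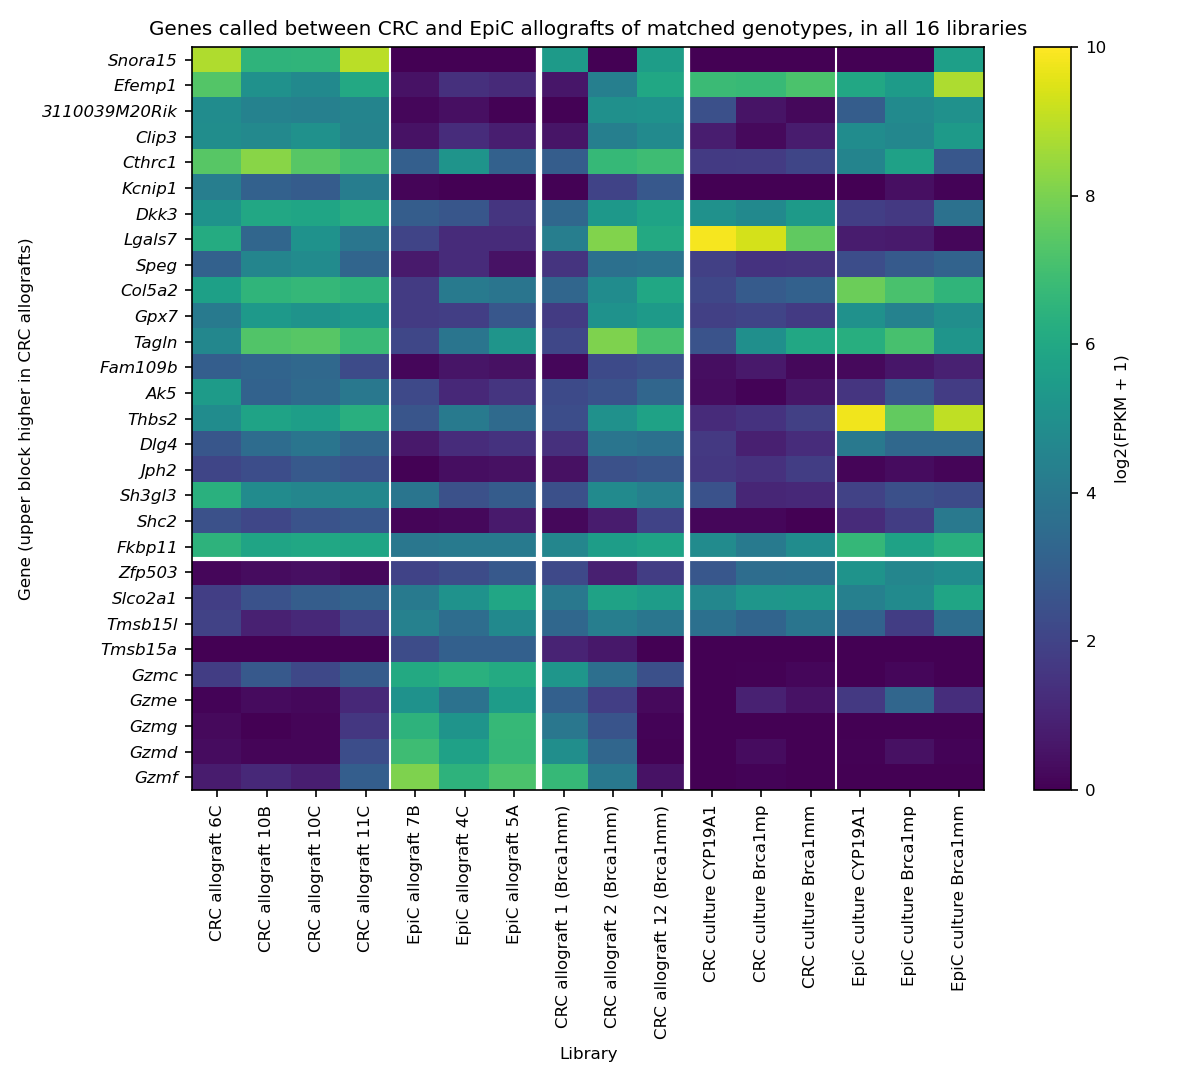
Heat map of log2(FPKM + 1) for 29 of the 30 called genes (rows, the upper 20 higher in CRC allografts) in 16 libraries (columns): CRC then EpiC allografts of matched genotypes, the 3 Brca1mm CRC allografts, then CRC and EpiC cultures. The granzyme rows are bright in the 3 EpiC allografts and dark in the 4 matched CRC allografts, and most rows of the upper block are dark in the CRC cultures and brighter in the EpiC cultures.

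Granzyme genes were lower in CRC allografts, and 5 of 7 tested members were called lower, none higher. All 7 were lower at an unadjusted p under 0.05, against 3.48% of all genes. In all 7 the groups did not overlap, against 4.15% of all genes with EpiC higher throughout. Gzme, Gzmg and Gzmb averaged under 1 FPKM in CRC allografts and passed the filter only through EpiC allografts. The counts of tested members are therefore a description. The median difference of the 7 was -4.36 log2 units, against 0.02 over all genes. In this and the following accounts, values are given for CRC allografts 6C, 10B, 10C and 11C and then for EpiC allografts 7B, 4C and 5A, the first of each being CYP19A1.

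Gzmc had 2.57, 5.97, 3.52 and 6.22 FPKM in CRC allografts, against 65.7, 79.8 and 67.8 FPKM in EpiC allografts. Every EpiC value lay far above every CRC value, and the 3 EpiC values were close together. On average that is 4.57 ± 1.81 FPKM in CRC allografts and 71.1 ± 7.63 FPKM in EpiC allografts (SD, n = 4 and 3), a fitted difference of -3.79 (SE 0.29, limma adjusted p = 0.00395). It was the granzyme that stayed called whichever library was left out, with an adjusted p of at most 0.0442.

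Gzmf had 0.691, 1.22, 0.775 and 6.94 FPKM in CRC allografts, against 267, 88.0 and 142 FPKM in EpiC allografts. Gzmd had 0.245, 0.0980, 0.0932 and 4.09 FPKM in CRC allografts, against 118, 52.3 and 100.1 FPKM in EpiC allografts. Gzmg had 0.182, 0, 0.0967 and 2.11 FPKM in CRC allografts, against 88.3, 34.8 and 103 FPKM in EpiC allografts. Of the CRC allografts 11C was the highest for each of these 3 genes and still far below every EpiC allograft. Gzme averaged 0.426 ± 0.547 FPKM in CRC allografts and 30.4 ± 16.6 FPKM in EpiC allografts. The fitted differences were -5.79 for Gzmf, -5.70 for Gzmd, -5.61 for Gzmg and -4.36 for Gzme, with limma adjusted p of 0.0146, 0.0146, 0.00982 and 0.0149. These 4 kept their direction in every alternative, but each lost its call when certain libraries were left out. The highest adjusted p were 0.0695 for Gzmf without 6C, 0.0801 for Gzmd without 7B, 0.0607 for Gzmg without 6C and 0.0801 for Gzme without 7B.

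The more widely expressed granzymes missed the threshold. Gzma had 1.56, 3.33, 3.0 and 2.81 FPKM in CRC allografts, against 32.9, 53.8 and 13.3 FPKM in EpiC allografts (difference -3.07, adjusted p = 0.0553). Gzmb, the main death-inducing granzyme, had 0.384 to 0.940 FPKM in CRC allografts and 3.16 to 10.9 FPKM in EpiC allografts (difference -2.18, adjusted p = 0.113). Gzmk, Gzmm and Gzmn reached at most 0.722 FPKM in the 7 libraries and were not tested.

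Other genes of natural killer cells were measured beside the granzymes. None of the 5 tested of the 12 listed was called, and the median difference was -1.15. At an unadjusted p under 0.05, 3 were lower in CRC allografts, against 3.48% of all genes. Prf1, the pore-forming perforin, had 0.112, 0.158, 0.125 and 0.505 FPKM in CRC allografts, against 5.74, 4.47 and 2.11 FPKM in EpiC allografts (difference -1.98, adjusted p = 0.0930). Nkg7, a granule membrane protein, had 1.55 to 2.19 FPKM in CRC allografts and 4.31 to 9.14 FPKM in EpiC allografts (adjusted p = 0.264). For neither gene did the groups overlap. Prf1, under 1 FPKM in every CRC allograft, passed the filter only through EpiC allografts. Ncr1, the receptor that defines natural killer cells, had 0.164 to 1.06 FPKM in CRC allografts and 0.599 to 4.09 FPKM in EpiC allografts, which overlap. The 12 genes summed to 3.97 to 11.8 FPKM in CRC allografts and 12.5 to 31.4 FPKM in EpiC allografts, whereas the 10 granzymes summed to 6.12 to 24.4 FPKM in CRC allografts and 333 to 612 FPKM in EpiC allografts.

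Of 13 T cell genes, 3 were tested and none was called. Cd4 and Lck were lower in CRC allografts at an unadjusted p under 0.05, against 3.48% of all genes. The 13 genes summed to 5.0 to 8.20 FPKM in CRC allografts and 9.46 to 18.1 FPKM in EpiC allografts. The defining receptor gene Cd3e was at 0.0932 to 0.692 FPKM in CRC allografts and 0.113 to 1.77 FPKM in EpiC allografts, and Cd8a reached at most 0.483 FPKM. The part of these cells in the granzyme result was not tested.

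**Figure D2:**
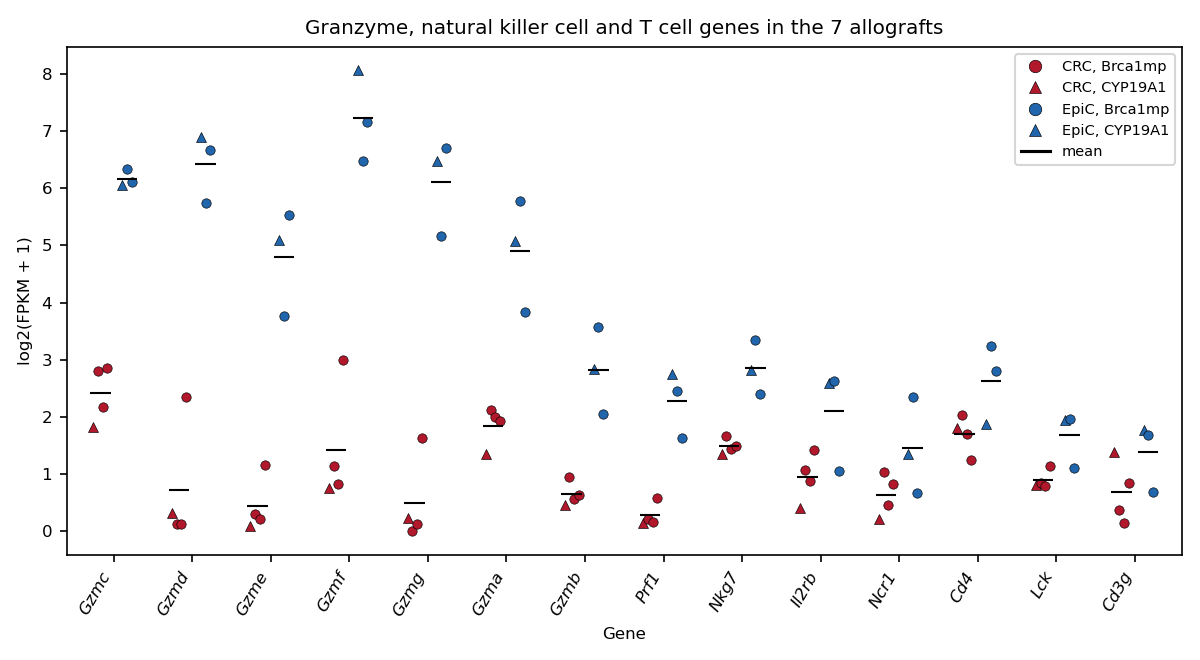
Levels of granzyme, natural killer cell and T cell genes as log2(FPKM + 1) in the 4 CRC allografts (red) and 3 EpiC allografts (blue), with triangles for CYP19A1, circles for Brca1mp and bars at the mean. The groups lie apart for the 7 granzymes, Prf1 and Nkg7, and overlap for Il2rb, Ncr1, Cd4, Lck and Cd3g.

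Among genes higher in CRC allografts, those with the smallest p were hardly expressed in EpiC allografts. The long non-coding RNA 3110039M20Rik had 28.3, 20.9, 19.5 and 22.01 FPKM in CRC allografts, against 0.138, 0.330 and 0.0426 FPKM in EpiC allografts. Its fitted difference was 4.35 (SE 0.26, limma adjusted p = 0.00178). Clip3, which encodes a microtubule-binding protein of the trans-Golgi, had 29.1, 25.3, 32.0 and 21.4 FPKM in CRC allografts, against 0.390, 1.42 and 0.799 FPKM in EpiC allografts (difference 3.91, SE 0.30, adjusted p = 0.00395). Both were present in every CRC allograft at similar levels and low in every EpiC allograft. They stayed called when any single library was left out, with adjusted p of at most 0.0410 for 3110039M20Rik and 0.0442 for Clip3.

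Snora15, a small nucleolar RNA, was listed at 0 in all 3 EpiC allografts and had 449, 90.2, 91.9 and 493 FPKM in CRC allografts (adjusted p = 0.00417). It also was listed at 0 in the 4 matched cultures. So short a gene gives an unstable FPKM in poly(A) libraries, and its level is uncertain. Kcnip1, a subunit of potassium channels, averaged 12.5 ± 6.34 FPKM in CRC allografts and 0.0294 ± 0.0510 FPKM in EpiC allografts (difference 3.63, adjusted p = 0.0146). It had 17.6 to 18.3 FPKM in 6C and 11C and 6.42 to 7.64 FPKM in 10B and 10C. Kcnip1 was called in only 3 of the 7 fits that left out 1 library, and its highest adjusted p was 0.0774, without 6C.

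Several of the genes that were higher encode matrix or secreted proteins. Col5a2, a fibrillar collagen chain, had 50.3, 92.6, 99.7 and 86.8 FPKM in CRC allografts, against 2.33, 16.02 and 13.8 FPKM in EpiC allografts (difference 2.97, SE 0.32, adjusted p = 0.0146). Cthrc1, a secreted protein induced in wounded arteries and in invasive tumours, had 170.3, 299, 168 and 126 FPKM in CRC allografts, against 7.16, 35.1 and 7.58 FPKM in EpiC allografts (difference 3.69, adjusted p = 0.0481). Dkk3, a secreted member of the Dickkopf family, had 34.1, 62.1, 58.5 and 75.3 FPKM in CRC allografts, against 6.70, 5.45 and 1.89 FPKM in EpiC allografts (difference 3.42, adjusted p = 0.0265). In each of these the lowest CRC allograft lay above the highest EpiC allograft. Efemp1, a fibulin of elastic matrix, averaged 70.9 ± 62.4 FPKM in CRC allografts and 1.08 ± 0.627 FPKM in EpiC allografts, with a wide range among CRC allografts (25.8 in 10C to 161 in 6C; adjusted p = 0.0230). Thbs2, a matricellular thrombospondin, averaged 52.0 ± 20.6 FPKM in CRC allografts and 10.4 ± 5.42 FPKM in EpiC allografts (adjusted p = 0.0367). Each lost its call without some library, with adjusted p of up to 0.0618 for Col5a2, 0.123 for Dkk3 and 0.167 for Thbs2 without 10B, 0.0685 for Efemp1 without 5A and 0.175 for Cthrc1 without 7B.

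The endoplasmic reticulum genes Fkbp11, a peptidyl-prolyl isomerase, and Gpx7, a peroxidase that aids disulfide formation, were also higher. Fkbp11 had 86.2, 56.9, 60.3 and 58.2 FPKM in CRC allografts, against 14.7, 16.3 and 16.5 FPKM in EpiC allografts (difference 1.98, adjusted p = 0.0298). Gpx7 had 15.98, 41.4, 34.6 and 41.4 FPKM in CRC allografts, against 2.35, 2.63 and 5.58 FPKM in EpiC allografts (difference 2.83, adjusted p = 0.0146). For Fkbp11 the EpiC libraries lay close together and 6C was the highest, and for Gpx7 6C was the lowest CRC allograft and still above every EpiC allograft. The other 23 tested genes of the secretory pathway and unfolded protein response were not called, and the list's median difference was 0.18.

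Genes of the contractile apparatus and of cell signalling were also among those that were higher. Tagln, an actin-binding protein of smooth muscle and myofibroblasts, was the 1 called gene whose groups overlapped. It had 23.5, 155, 170.3 and 108 FPKM in CRC allografts, against 3.38, 13.9 and 35.7 FPKM in EpiC allografts, so that 6C lay below 5A (adjusted p = 0.0449). Speg, a kinase of striated muscle, averaged 16.5 ± 9.81 FPKM in CRC allografts and 0.804 ± 0.493 FPKM in EpiC allografts (adjusted p = 0.0481). Lgals7, a galectin of stratified epithelia, had 70.7, 8.80, 33.6 and 14.1 FPKM in CRC allografts, against 3.17, 1.35 and 1.32 FPKM in EpiC allografts (adjusted p = 0.0461). All 4 CRC values lay above the EpiC values, over a wide range. The genes that were higher also include Sh3gl3, Jph2, Dlg4, Fam109b, Ak5 and Shc2, which like Thbs2 were chosen for naming after their values were seen. Jph2, a junctophilin of muscle, had 3.26 to 6.01 FPKM in CRC allografts and 0.0519 to 0.371 FPKM in EpiC allografts. Dlg4, a synaptic scaffold, had 5.41 to 13.8 FPKM in CRC allografts and 0.591 to 1.77 FPKM in EpiC allografts. Shc2, an adaptor of receptor tyrosine kinases, had 3.35 to 5.57 FPKM in CRC allografts and 0.103 to 0.667 FPKM in EpiC allografts. Ak5, an adenylate kinase, had 7.77 to 44.3 FPKM in CRC allografts and 1.21 to 3.64 FPKM in EpiC allografts. Sh3gl3, an endophilin, had 23.4 to 80.1 FPKM in CRC allografts and 4.64 to 13.8 FPKM in EpiC allografts, and Fam109b had 3.91 to 9.42 FPKM in CRC allografts and 0.143 to 0.498 FPKM in EpiC allografts. None of these 6 overlapped between groups, and their fitted differences ran between 2.10 for Shc2 and 2.55 for Fam109b.

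Apart from the granzymes, 4 genes were lower in CRC allografts. Tmsb15a, a beta thymosin that binds actin monomers, was listed at 0 in all 4 CRC allografts, against 4.04, 7.45 and 7.42 FPKM in EpiC allografts (limma adjusted p = 0.0111). Tmsb15l, a relative, had 2.97, 0.910, 1.20 and 2.79 FPKM in CRC allografts, against 20.2, 11.0 and 26.2 FPKM in EpiC allografts (difference -2.72, adjusted p = 0.0461). For both genes the groups lay apart. Tmsb15b1 averaged 1.93 ± 1.47 FPKM in CRC allografts and 9.22 ± 2.26 FPKM in EpiC allografts and was not called (adjusted p = 0.260). Its transcript is 98.4% identical to that of Tmsb15l over the aligned bases, so reads of these may have been exchanged. The listed relative Tmsb15b2 was too low to be tested, and in 10B, 10C and 11C it lay above every EpiC allograft. It had 5.47e-07, 3.05, 2.79 and 0.578 FPKM in CRC allografts, against 0.0777, 3.90e-07 and 2.37e-07 FPKM in EpiC allografts. The abundant thymosins did not pass, with Tmsb10 at 1359 ± 269.6 FPKM in CRC allografts and 1099 ± 179.5 FPKM in EpiC allografts. Slco2a1, a prostaglandin transporter, had 2.58, 4.74, 6.67 and 8.09 FPKM in CRC allografts, against 16.4, 33.3 and 59.2 FPKM in EpiC allografts (adjusted p = 0.0265). Zfp503, a zinc finger repressor that was named after its values were seen, averaged 0.221 ± 0.0865 FPKM in CRC allografts and 4.38 ± 1.504 FPKM in EpiC allografts (adjusted p = 0.0322).

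The difference between media was then set against that in the cultures of the same genotypes. These cultures are not known to be the cells that were grafted, and the allografts also hold host RNA. Of the 21 genes higher in CRC allografts, 15 were lower in CRC than in EpiC cultures, 12 of them by more than 1 log2 unit. Snora15 was listed at 0 in both. Kcnip1, counted among the 15, reached at most 0.321 FPKM in these cultures, so its sign there is uncertain. For Sh3gl3, also among the 15, the genotypes went opposite ways. It had 4.74 and 1.08 FPKM in the CYP19A1 and Brca1mp CRC cultures, against 2.95 and 4.39 FPKM in the EpiC cultures. Over all genes tested, the median culture difference was 0. Clip3 had 0.754 and 0.202 FPKM in the CYP19A1 and Brca1mp CRC cultures, against 28.2 and 23.7 FPKM in the EpiC cultures of these genotypes. Col5a2 had 3.40 and 6.23 FPKM in CRC cultures, against 212 and 139 FPKM in EpiC cultures. For these genes the media stood in opposite order in the cultures and in the allografts. Of these 15 genes, Thbs2 had the widest gap in log2 units, with 1.36 and 1.76 FPKM in CRC cultures, against 871 and 195 FPKM in EpiC cultures. Cthrc1 had 2.29 and 2.34 FPKM in CRC cultures, against 21.9 and 52.4 FPKM in EpiC cultures.

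Only 5 of the 21, Dkk3, Jph2, Lgals7, Efemp1 and Fam109b, were also higher in CRC cultures. Fam109b was under 1 FPKM in all 4 cultures, with a difference of 0.099 log2 units, so its sign there is uncertain. Dkk3 had 32.1 and 25.6 FPKM in CRC cultures, against 2.64 and 2.12 FPKM in EpiC cultures, a difference of 3.14 log2 units beside 3.42 in the allografts. Lgals7 had 929 and 648 FPKM in CRC cultures, against 0.717 and 0.660 FPKM in EpiC cultures, so its allograft difference of 3.24 was smaller than the 8.85 log2 units of the cultures. Dkk3 was therefore close to its culture difference, and Lgals7 was not.

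The difference between allografts and cultures was tested as the medium by state interaction over 11 libraries. It was called for 26 of the 30 genes, against 797 of 12269 genes tested (6.5%, of which 3.38% with a positive and 3.11% with a negative interaction). The 30 were chosen on the same allograft values, so this count is a description. Of the 30, the interaction was not called for Dkk3 (0.30, adjusted p = 0.852), Zfp503 (-0.41, adjusted p = 0.701), Jph2 (0.86, adjusted p = 0.255) and Gzme (-2.36, adjusted p = 0.130). The largest among the 30 was 9.56 log2 units for Thbs2 (SE 0.88, limma adjusted p = 2.62e-04), then 8.14 for Clip3 (SE 0.46, adjusted p = 1.78e-05) and 7.96 for Col5a2 (SE 0.69, adjusted p = 2.33e-04). The granzymes were near 0 in the matched cultures of either medium, apart from Gzme, which had 2.20 and 8.97 FPKM in the EpiC cultures and 0 and 0.898 FPKM in the CRC cultures.

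**Figure D3:**
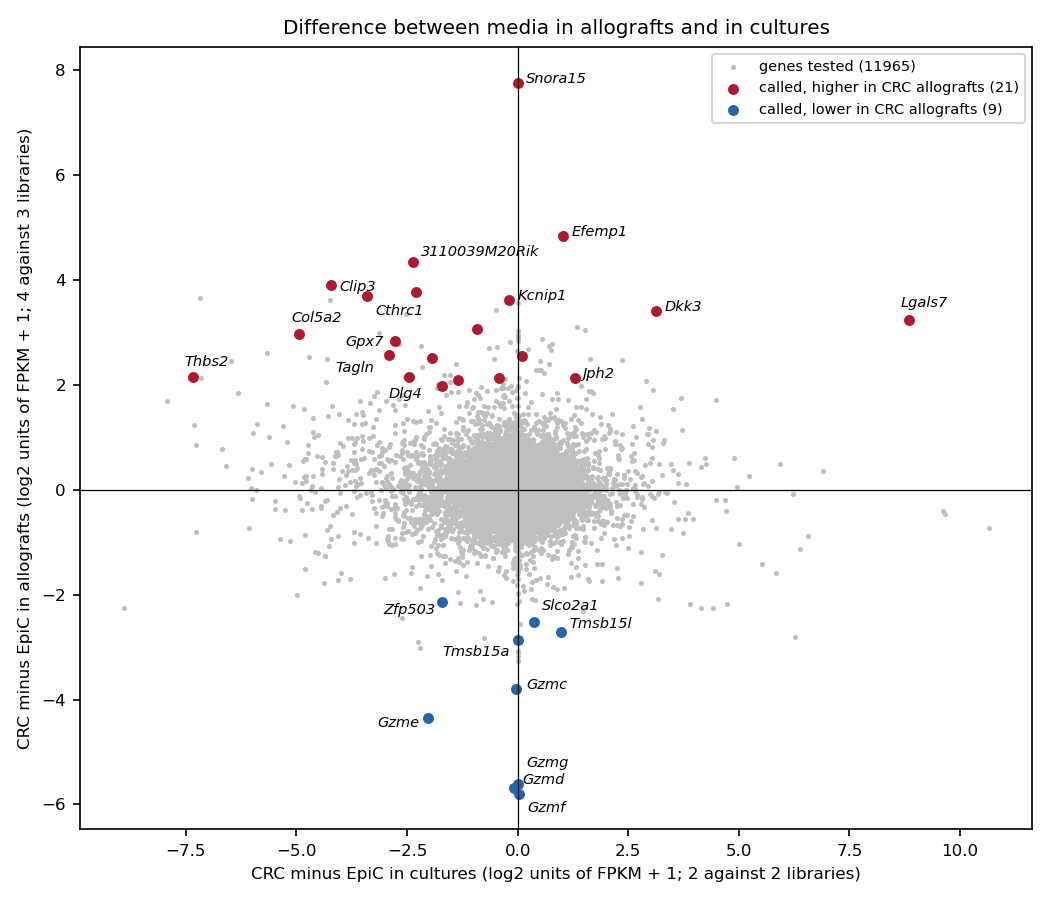
Each point is a gene, with the CRC minus EpiC difference in log2(FPKM + 1) in the cultures on the horizontal axis and in the allografts on the vertical axis (grey, 11965 genes tested; red, 21 called higher in CRC allografts; blue, 9 called lower). Of the 21 red points 15 lie left of 0, Snora15 lies at 0, and Dkk3 and Lgals7 lie right of it.

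The gene lists of cell types put these genes beside the make-up of the tissue. Of 22 fibroblast and collagen genes, Col5a2 was called, and the median difference was 0.52. At an unadjusted p under 0.05, 7 were higher in CRC allografts and none lower, against 4% and 3.48% of all genes. Col1a1 had 244, 288, 625 and 722 FPKM in CRC allografts, against 55.2, 180.1 and 74.0 FPKM in EpiC allografts (adjusted p = 0.223). Dpt, a dermatopontin of connective tissue, averaged 59.2 ± 37.5 FPKM in CRC allografts and 6.89 ± 2.84 FPKM in EpiC allografts (adjusted p = 0.159). The groups did not overlap for either gene. The summed level of the list was 5877 to 8552 FPKM in CRC allografts and 2513 to 6297 FPKM in EpiC allografts. Pdgfra, a receptor of fibroblasts, was at 61.6 to 122 FPKM in CRC allografts and 5.78 to 102 FPKM in EpiC allografts, with the low value in 5A.

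Vessel genes had mostly positive differences and no call. Of 16 endothelial genes tested, 15 had positive differences, against 6170 of 11965 over all genes. An unadjusted p under 0.05 was passed by 4 of the 16, all higher, against 4% of all genes. The list's median was 0.69. Esam, an adhesion molecule of endothelium, averaged 21.4 ± 3.44 FPKM in CRC allografts and 11.3 ± 5.97 FPKM in EpiC allografts (adjusted p = 0.563). The endothelial list summed to 215 to 355 FPKM in CRC allografts and 109.7 to 288 FPKM in EpiC allografts, which overlap. All 10 tested pericyte and smooth muscle genes had positive differences, with a median of 0.45, and summed to 74.1 to 129 FPKM in CRC allografts and 25.4 to 71.2 FPKM in EpiC allografts. The 12 basal and myoepithelial genes tested split into 6 positive and 6 negative differences, with a median of -0.036. Among them, the smooth muscle actin gene Acta2 had 16.1, 381, 455 and 157 FPKM in CRC allografts, against 6.90, 22.6 and 27.9 FPKM in EpiC allografts (adjusted p = 0.159). As for Tagln, 6C was low and the Brca1mp CRC allografts were high.

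All 14 tested skeletal muscle genes had positive differences, against 6170 of 11965 over all genes. Members that are low in EpiC allografts can pass the filter through CRC allografts, so this count is a description. The list's median was 1.58, and none of its genes was called. The list summed to 22.7 to 805 FPKM in CRC allografts and 12.6 to 195 FPKM in EpiC allografts. Its mean log2(FPKM + 1) was 4.15 in 10C, whereas the 0.633 of 6C lay within the EpiC range of 0.487 to 1.06. Acta1, the actin of skeletal muscle, had 0.425, 15.5, 207 and 20.8 FPKM in CRC allografts, against 0.461, 2.57 and 0.225 FPKM in EpiC allografts, so that 10C stood far above the rest. Speg and Jph2 are genes of muscle too, and the part of muscle RNA in their difference was not tested.

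Of 10 luminal epithelial genes tested, 8 had negative differences, against 5795 of 11965 over all genes. At an unadjusted p under 0.05, 5 were lower in CRC allografts, against 3.48% of all genes. None was called, and the list's median was -0.95. Cdh1, the junction protein E-cadherin, had 0.328, 0.910, 1.42 and 1.00 FPKM in CRC allografts, against 3.24, 13.9 and 5.98 FPKM in EpiC allografts (difference -2.10, adjusted p = 0.0785). Krt19 had 0.309, 3.83, 4.02 and 1.72 FPKM in CRC allografts, against 9.49, 10.1 and 10.9 FPKM in EpiC allografts (adjusted p = 0.176). Neither gene overlapped between groups. Cdh1 averaged under 1 FPKM in CRC allografts and passed the filter only through EpiC allografts. The counts of tested luminal members are therefore a description. Erbb2, the receptor tyrosine kinase HER2, averaged 3.58 ± 2.10 FPKM in CRC allografts and 7.92 ± 0.0396 FPKM in EpiC allografts (adjusted p = 0.508). The list summed to 47.5 to 518 FPKM in CRC allografts and 232 to 918 FPKM in EpiC allografts. Krt5, a keratin of basal cells, averaged 1.65 ± 1.92 FPKM in CRC allografts and 3.77 ± 4.32 FPKM in EpiC allografts. Its culture difference was 10.65 log2 units, beside -0.73 in allografts (interaction -11.39, adjusted p = 3.29e-04).

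Myeloid and antigen presentation genes were high in single libraries. None of 17 tested macrophage genes was called, and Lyz2, the lysozyme of macrophages, had 7658 FPKM in 6C and 1824 to 1897 FPKM in the other 3 CRC allografts, against 1205 to 6590 FPKM in EpiC allografts. All 7 tested MHC class II presentation genes had negative differences, with a median of -0.65, which turned to 0.56 without 4C. Cd74, the invariant chain, had 4237 FPKM in 4C. Of 29 tested interferon response genes, 27 had negative differences, with a median of -0.46 and no call. Over all genes tested, 5795 of 11965 had negative differences. Socs2, an inhibitor of growth hormone and cytokine receptors, was near the threshold, with 2.04, 4.29, 5.71 and 6.42 FPKM in CRC allografts, against 13.8, 19.3 and 18.9 FPKM in EpiC allografts (difference -1.84, adjusted p = 0.0548). DNA replication genes had a median difference of 0.42 and mitosis genes 0.18, with no calls among 24 and 22 tested.

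Among protease, Wnt and p53 target genes, Plat, the tissue plasminogen activator, had 106, 93.9, 74.3 and 57.9 FPKM in CRC allografts, against 36.5, 20.01 and 26.0 FPKM in EpiC allografts (difference 1.61, adjusted p = 0.0929). Sfrp2, a secreted Wnt antagonist, had 153, 79.9, 72.9 and 21.4 FPKM in CRC allografts, against 12.6, 16.04 and 5.90 FPKM in EpiC allografts (difference 2.61, adjusted p = 0.233). Cdkn1a, the p53-induced cell cycle inhibitor p21, had 16.4 to 18.5 FPKM in CRC allografts and 25.1 to 68.5 FPKM in EpiC allografts (difference -1.23, adjusted p = 0.420). For these 3 genes the groups did not overlap, and none was called. Of the 36 lists, 7 held a called gene: the granzymes, beta thymosins, collagens, secretory pathway and the basal, squamous and Wnt lists, the last 3 through Tagln, Lgals7 and Dkk3. The lists were chosen with earlier results of these data known, so this count is a description. The medians of the lists not yet given lay between -0.52 for cytokine feedback and 0.72 for matrix proteases, apart from -0.76 for the T cell list. In 13 lists, among them the basal, squamous, macrophage, MHC class II, p53 target and beta thymosin lists, the median changed sign in at least 1 alternative.

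**Figure D4:**
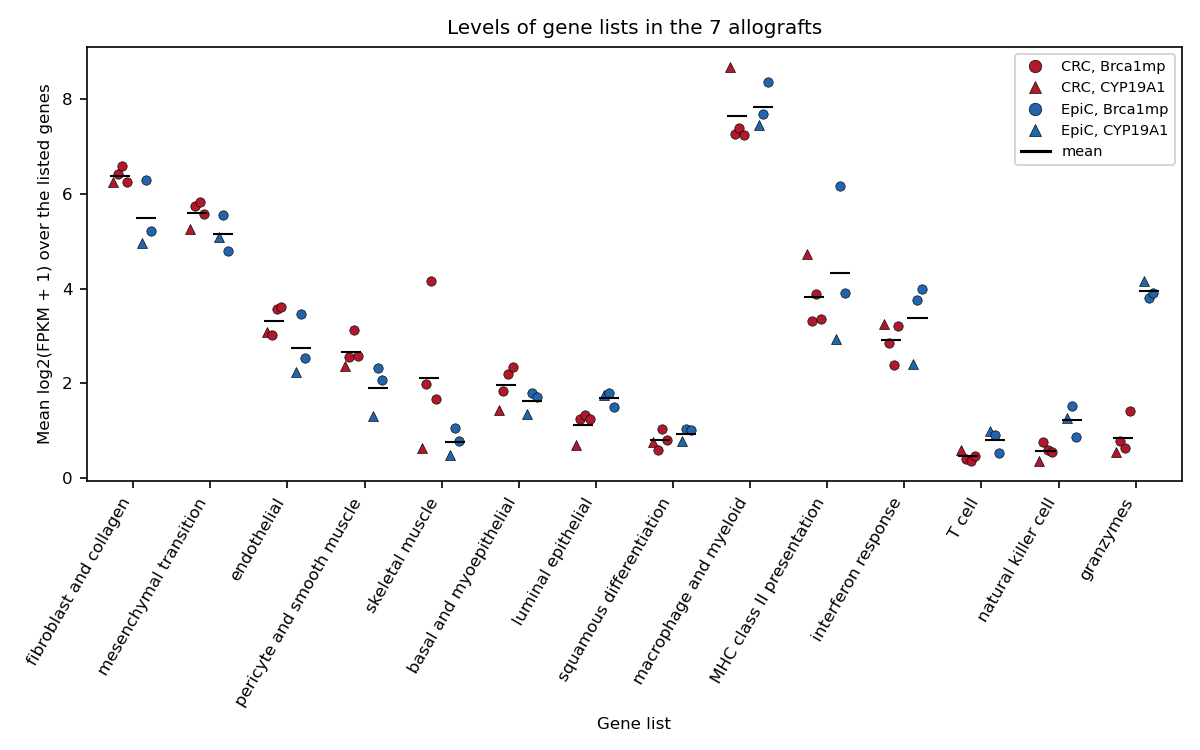
Mean log2(FPKM + 1) over the genes of 14 lists in the 4 CRC allografts (red) and 3 EpiC allografts (blue), with triangles for CYP19A1, circles for Brca1mp and bars at the mean. The granzyme list separates the groups most, at 0.560 to 1.41 in CRC allografts and 3.80 to 4.16 in EpiC allografts, and the MHC class II and skeletal muscle lists each hold 1 library far above the others.

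The 3 Brca1mm CRC allografts, which had no part in choosing the called genes, were placed by their distance to the CRC and EpiC means. Library 12 lay nearer the CRC mean for 27 of the 30 genes and library 2 for 25, but library 1 for only 3. In library 1, Gzmf had 102 FPKM, Gzmc 36.9 FPKM and Gzmd 29.7 FPKM. In the same library Clip3 had 0.496 FPKM and 3110039M20Rik 0.0341 FPKM. Library 12 had 0.418 FPKM of Gzmf and 26.5 FPKM of Clip3, and library 2 had 15.1 FPKM of Gzmf and 18.7 FPKM of Clip3. Library 1, a CRC allograft by its label, thus lay nearer the EpiC mean for 27 of the 30. With all 10 allografts in the model, 1 gene was called, Tmsb15a (adjusted p = 0.0330), against 30 in the 7 matched allografts. There the Brca1mm libraries, all of 1 medium, add to the spread and not to the difference between media.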

How the data were processed

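The values are the FPKM that the authors deposited in 1 table of 16 libraries and 23993 gene symbols, per the file headers. Per the submitters' processing notes, the tools were FastQC, Trim Galore, TopHat and Cufflinks with build mm9, and no version is listed. Annotation and scaling: not given in the sources used here. A second table of 6 libraries of this series was normalised separately and not used.

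Tests used limma 3.58.1 in R 4.3.3 on log2(FPKM + 1), for genes averaging 1 FPKM or more in the fit, with trend and Benjamini-Hochberg adjustment over all genes tested at 0.05. Differences are on that log2 scale, CRC minus EpiC, and understate changes of low genes. A gene that is low in 1 group can pass the filter through the other, so counts of list members are a description. The 7 allografts were fitted with genotype (4 residual degrees of freedom), and the interaction over 7 allografts and 4 cultures (6). The 4 cultures alone left 1 and are described. Code was tested on simulated data.

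Depth cannot be read from FPKM. Steps between low values put a fragment's worth at 0.986 to 1.56 times that in 10C, roughly, since at most 13.9% of genes fell in the modal bin.

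Members, lists and tests were chosen with earlier results of these data known. A called gene is not reported here. Named genes are the 12 called genes with the largest increases and up to 12 with the largest decreases (averaging 5 FPKM or more in the higher medium), the 3 members of smallest p of each of 36 lists, study genes and markers. Promoters came from RefSeq (GRCm38.p6), to which all 30 called genes were matched by symbol, and transcripts from GENCODE, both aligned with Biopython 1.88. Alternatives were other pseudocounts, filters, scalings and models, and leaving out each library.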

Additional observations from a re-analysis of the deposited data

Results flagged for a closer look

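Among groups of 4 CRC allografts, 66 levels were examined for a library far from the other 3. Levels were taken as log2(FPKM + 1), or as its mean over a list. In 6, the gap to the nearest library, as a share of the range, was above the 95% critical value of Dixon's test. Chance gives about 1 in 20 groups. The shares were 0.853 for Gzmg and 0.915 for Gzmd, where 11C was the highest. They were 0.880 for Sh3gl3 and 0.859 for Fkbp11, where 6C was the highest. List levels gave 0.858 for luminal epithelial genes, where 6C was the lowest, and 0.888 for macrophage and myeloid genes, where 6C was the highest.

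The difference between media was itself different in allografts and in cultures for 26 called genes (medium by state interaction, limma adjusted p under 0.05). The values are log2 units, the allograft difference minus the culture difference, with 7 allografts and 4 cultures. Those given here were positive for Thbs2 (9.56), Clip3 (8.14), Col5a2 (7.96), Snora15 (7.74), Cthrc1 (7.09), 3110039M20Rik (6.72) and Gpx7 (5.64). They were also positive for Tagln (5.51), Dlg4 (4.65), Ak5 (4.38), Speg (4.01), Kcnip1 (3.80), Efemp1 (3.80), Fkbp11 (3.72), Shc2 (3.45), Sh3gl3 (2.51) and Fam109b (2.44). They were negative for Gzmf (-5.84), Lgals7 (-5.65), Gzmd (-5.62), Gzmg (-5.61), Gzmc (-3.73), Tmsb15l (-3.68), Slco2a1 (-2.86) and Tmsb15a (-2.85). The genes were chosen on the same allograft values. Snora15, Tmsb15a and Gzmg were listed at 0 in all 4 matched cultures. Gzmc, Gzmd, Gzmf and Kcnip1 reached at most 0.365 FPKM there. For these genes the interaction mostly repeats the allograft difference.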

How the results depend on the processing

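Of the 30 calls in allografts, the count was 26 to 31 with a pseudocount of 0.1, a filter at 5 FPKM, median ratio rescaling, no trend or no genotype, and in the fits added after seeing the data, 26 with equal FPKM sums and 29 without small RNA genes. It was 0 without a filter, where limma gave 1525 genes at an unadjusted p under 0.05. It was 17 in Brca1mp allografts alone (10 shared), 1 with all 10 allografts and 11 with 10B and 10C as 1 sample. Leaving out each library gave 6 to 27 calls, with 5 genes, 3110039M20Rik, Clip3, Gzmc and Snora15 among them, called each time. All 30 genes kept their sign in the alternatives run per gene. The interaction count of 797 was 492 with a filter at 5 FPKM, 356 to 1512 with a library left out (356 without the Brca1mp CRC culture, 1512 without 5A), and 660 to 1041 otherwise. The cause of these shifts was not tested. No paired analysis was possible because the groups compared share no replicate number. Cultures had 1 library per genotype and medium, so their differences are weakly founded.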
